A study of Mus musculus with 6 samples.

Results

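Laminins, nidogens and perlecan make up, together with type IV collagen, the sheet of extracellular matrix called the basement membrane. The genes described here are the laminin alpha chain genes Lama2, Lama4 and Lama5, the beta chain genes Lamb1 and Lamb2, the gamma chain gene Lamc1, the nidogen genes Nid1 and Nid2, and Hspg2, which encodes the heparan sulfate proteoglycan perlecan. They were measured in mouse embryonic fibroblasts (MEFs), connective tissue cells grown from mouse embryos, with or without Atxn3, the gene for ataxin-3, an enzyme that removes ubiquitin from proteins. A gene was read from every probe set, a group of short oligonucleotides on the array, whose platform annotation names that gene and no other. By this rule 9 of the 18193 genes measured were taken, with 19 of the 45037 probe sets. In Atxn3-KO MEFs the RNA of 6 of these 9 genes was lower than in Atxn3-WT MEFs (Lama2, Lama5, Lamb1, Lamb2, Lamc1 and Nid2). That of Nid1 was slightly higher, and no difference was detected for Hspg2. Lama4 was also slightly higher by its brighter probe set, but this increase was unstable. It stayed significant in 7 of 14 alternative analyses, against 13 for Nid1, and the dimmer Lama4 probe set had a log2 change of -0.14. The strongest decreases were those of Lama2, to 48.7% of its Atxn3-WT level, and of Nid2, to 57.0%.

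The genotypes compared were Atxn3-WT and Atxn3-KO, with 3 arrays of each, to ask how the loss of Atxn3 alters gene expression. The methods describe the knockout and wildtype mice as littermates and speak of a MEF cell line of each genotype, and no treatment is given for the arrayed cells. The deleted part of Atxn3, the strain, the age of the embryos and the number of embryos or passages are not given in the sources used here. The replicates are called biological, but nothing states that they came from separate cultures or embryos, so the p-values rest on a spread among samples that could be only technical.

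Values are log2 levels after robust multi-array average (RMA) normalization, so that a difference of 1 is a 2-fold change, and no depth is defined for an array. The 25th percentile of all probe sets lay between 4.36 and 4.39 on the 6 arrays and the median between 5.97 and 6.0. Arrays of 1 genotype correlated at 0.9985 to 0.9989 across probe sets and arrays of different genotypes at 0.9925 to 0.9935. The brighter Atxn3 probe set read 6.53, 6.81 and 6.66 in Atxn3-WT MEFs, against 3.60, 3.43 and 3.73 in Atxn3-KO MEFs, where it lay below the 25th percentile. Of 12 fibroblast markers, 11 were above the median on every array and the other, Lum, was below it. The fibroblast surface marker Thy1 averaged 11.39 ± 0.018 (SD, n = 3) in Atxn3-WT and 7.18 ± 0.078 in Atxn3-KO MEFs. The other fibroblast markers did not share a decrease of this size. Of the 12, 3 were higher and 5, Thy1 among them, lower by limma at an adjusted p under 0.05. After Thy1 the largest decrease was a log2 change of -0.28.

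Each laminin is a cross-shaped molecule assembled inside the cell from an alpha, a beta and a gamma chain. The alpha chain carries the domains that bind receptors such as integrins and dystroglycan, and the laminins of most tissues contain the gamma chain encoded by Lamc1. Outside the cell laminins join into a network, which nidogens tie to type IV collagen and to perlecan. Lama2 is the alpha chain of muscle and peripheral nerve, Lama4 that of blood vessels and other mesenchymal tissue, and Lama5 that of epithelia and mature vessels. Fibroblasts make many of these proteins and release them into the matrix.

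RefSeq promoter windows of GRCm38.p6 were at hand for 6 of the 9 genes, Lama2, Lama5, Lamb1, Lamb2, Nid1 and Hspg2. The stretch from 250 to 51 bases before each annotated gene start is described, 200 bases in length. The windows of Lama5, Lamb2 and Nid1 are shown because these genes moved in different directions or by different amounts and their promoters differ in base composition. They lie at chr2:180225910-180226109 (minus strand) for Lama5, chr9:108479612-108479811 (plus strand) for Lamb2 and chr13:13437352-13437551 (plus strand) for Nid1. They are written 5′ to 3′ on the strand of the gene, and capitals mark GC boxes, the hexamer GGGCGG searched on both strands.
Lama5: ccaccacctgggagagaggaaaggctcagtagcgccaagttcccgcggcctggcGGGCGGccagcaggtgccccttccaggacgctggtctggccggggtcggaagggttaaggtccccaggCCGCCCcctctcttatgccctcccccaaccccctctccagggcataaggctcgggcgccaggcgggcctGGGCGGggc
Lamb2: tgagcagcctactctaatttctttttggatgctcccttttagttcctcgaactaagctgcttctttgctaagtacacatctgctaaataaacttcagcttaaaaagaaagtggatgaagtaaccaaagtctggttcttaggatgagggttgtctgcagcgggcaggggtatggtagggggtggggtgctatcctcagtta
Nid1: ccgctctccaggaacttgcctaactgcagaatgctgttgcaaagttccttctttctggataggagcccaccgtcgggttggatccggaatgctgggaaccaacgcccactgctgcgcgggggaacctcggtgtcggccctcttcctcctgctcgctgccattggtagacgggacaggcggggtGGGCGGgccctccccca
A GC box was found in 4 of the 6 windows, with 3 matches in Lama5, 2 in Lamb1, 1 in Nid1 and 5 in Hspg2, and in 24.6% of all 32851 windows. The letters TATAAA were in 0 of the 6 windows and in 9.14% of all windows, also on either strand. The number of CpG dinucleotides was 13 in Lama5, 11 in Lamb1, 13 in Nid1 and 17 in Hspg2, against 0 in Lama2, 2 in Lamb2 and a median of 4 over all windows. The GC content of the 6 windows ran from 43.0% in Lama2 to 72.0% in Lama5, with a median of 51.5% over all windows. Lama5, whose RNA was lower in Atxn3-KO MEFs, and Nid1, whose RNA was higher, thus both have CpG-rich windows with a GC box, while those of Lama2 and Lamb2, which were both lower, have few CpG dinucleotides and no GC box. The matches describe letters only, and binding was not measured.

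Of the alpha chain genes, Lama2 changed most, and its change was also the largest of the 9 genes. Its probe set read 7.34, 7.52 and 7.55 in Atxn3-WT and 6.52, 6.56 and 6.21 in Atxn3-KO MEFs. All 3 Atxn3-KO values lay well below the lowest Atxn3-WT value, and the third Atxn3-KO array was the lowest. The means were 7.47 ± 0.11 (SD, n = 3) for Atxn3-WT and 6.43 ± 0.19 for Atxn3-KO, which gave a log2 change of -1.04 (standard error 0.10, with an adjusted p of 0.000398 by limma). In such bulk samples fewer cells that express a gene and less RNA per cell cannot be told apart. Lama2 was the only 1 of the 19 probe sets past the thresholds of the study, at least a 2-fold change with an adjusted p no higher than 0.001, which 1.31% of all probe sets passed in either direction, 0.515% downward and 0.795% upward. Leaving out any 1 of the 6 arrays moved Lama2 to the other side of these thresholds, because the adjusted p rose above 0.001 or, without the third Atxn3-KO array, the change was under 2-fold. The adjusted p then lay between 0.00064 and 0.00274.

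Lama5 was also lower in Atxn3-KO MEFs, by both of its probe sets above the 25th percentile. The brighter probe set read 8.50, 8.56 and 8.56 in Atxn3-WT and 8.14, 7.96 and 7.96 in Atxn3-KO MEFs. The groups were clearly apart, with the first Atxn3-KO array nearest to the Atxn3-WT arrays. The log2 change was -0.52 (standard error 0.061, adjusted p = 0.000877 by limma), so that 69.9% of the Atxn3-WT level was left. The other probe set read 7.76, 7.90 and 7.90 against 7.57, 7.35 and 7.22 and had a change of -0.47 (adjusted p = 0.00838), again with its smallest decrease on the first Atxn3-KO array. The remaining Lama5 probe set lay below the 25th percentile in both genotypes and had a change of -0.11 (adjusted p = 0.156).

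Lama4 differed from the other alpha chains in direction, but the difference was small and unstable. Its brighter probe set read 8.42, 8.33 and 8.37 in Atxn3-WT and 8.57, 8.57 and 8.48 in Atxn3-KO MEFs. The lowest Atxn3-KO value was only slightly above the highest Atxn3-WT value. The log2 change was 0.17 (standard error 0.049, adjusted p = 0.0408 by limma). With 1 array left out the adjusted p was between 0.0552 and 0.127 in 5 of 6 cases, and it was 0.0362 without the third Atxn3-KO array. A dimmer Lama4 probe set read 5.09, 4.70 and 4.78 against 4.95, 4.78 and 4.42, with overlapping groups and a change of -0.14 (adjusted p = 0.561).

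**Figure D1:**
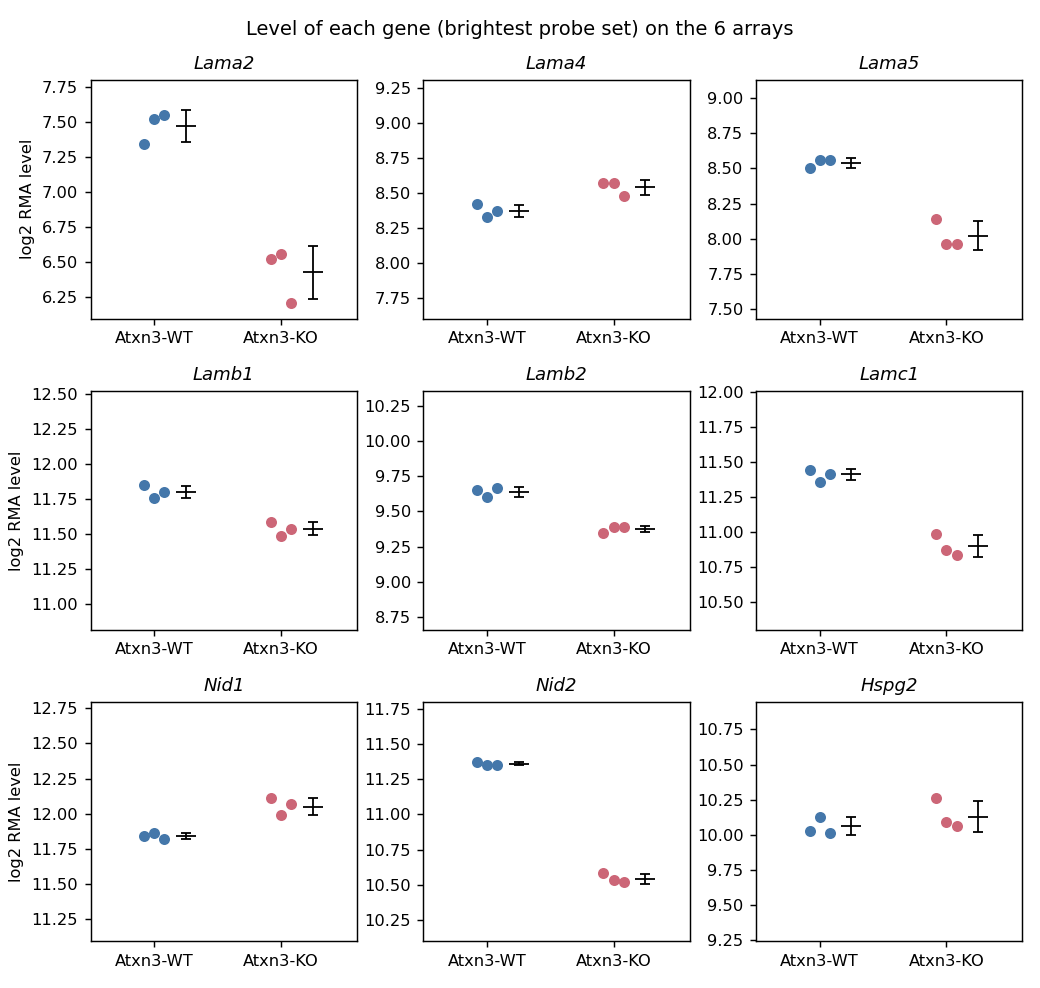
Log2 RMA level (vertical axis, the same span of log2 units in every panel) of the brightest probe set of each of the 9 genes. Points are the 3 Atxn3-WT (blue) and 3 Atxn3-KO (red) arrays, in the order of their replicate numbers, and the bars beside them give the mean ± SD. The Atxn3-KO points lie below all Atxn3-WT points for 6 genes and above them for Lama4 and Nid1, while the groups overlap for Hspg2.

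The genes of the chains that most laminins share were lower as well. Lamc1, the common gamma chain, read 11.44, 11.36 and 11.41 in Atxn3-WT and 10.99, 10.87 and 10.84 in Atxn3-KO MEFs. The gap between the groups was larger than the spread within either of them. Its log2 change was -0.51 (standard error 0.054, adjusted p = 0.000574 by limma), which left 70.5% of the Atxn3-WT level. The dimmer Lamc1 probe set read 8.78, 8.59 and 8.72 against 8.45, 8.23 and 8.09 and changed by -0.43 (adjusted p = 0.0150, or 0.0568 without the first Atxn3-WT array). In both probe sets the first Atxn3-KO array was the highest of its group.

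The beta chain genes changed less. Lamb1, the beta chain of most embryonic laminins, read 11.85, 11.76 and 11.80 in Atxn3-WT and 11.59, 11.49 and 11.54 in Atxn3-KO MEFs. Lamb2, the beta chain of mature muscle, nerve and kidney basement membranes, read 9.65, 9.60 and 9.67 against 9.35, 9.39 and 9.39. In both genes the groups did not overlap and the values within a genotype differed far less than the genotypes did. The log2 change was -0.27 (standard error 0.048, adjusted p = 0.00593 by limma) for Lamb1 and -0.26 (standard error 0.043, adjusted p = 0.00374) for Lamb2, which left 83.2% and 83.4% of the Atxn3-WT level. The Lamb1 probe set carries the suffix that marks probes matching several transcripts, but the other 2 expressed Lamb1 probe sets also fell, by 0.31 (adjusted p = 0.00625) and by 0.40 (adjusted p = 0.00204). The remaining Lamb1 probe set was below the 25th percentile in both genotypes and had a change of 0.049 (adjusted p = 0.514).

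The nidogens moved in opposite directions. Nid2 read 11.37, 11.35 and 11.35 in Atxn3-WT and 10.58, 10.53 and 10.52 in Atxn3-KO MEFs. Its values were nearly identical within a genotype, and the gap between genotypes was wide. The log2 change was -0.81 (standard error 0.042, adjusted p = 1.92e-05 by limma), the smallest adjusted p of the 19 probe sets. Nid1 read 11.84, 11.86 and 11.82 in Atxn3-WT and 12.11, 11.99 and 12.07 in Atxn3-KO MEFs. Every Atxn3-KO value was above every Atxn3-WT value, by a modest margin. The log2 change was 0.22 (standard error 0.048, adjusted p = 0.0139), or 116.3% of the Atxn3-WT level, and the adjusted p was 0.0510 without the third Atxn3-WT array. A dimmer Nid1 probe set read 9.85, 9.73 and 9.88 against 10.21, 10.01 and 9.97, a change of 0.24 with an adjusted p of 0.0498, which was under 0.05 without the third Atxn3-KO array (0.0445) and above it without any other array (up to 0.140). The third Nid1 probe set lay below the 25th percentile in both genotypes and showed no detectable change (0.021, adjusted p = 0.933).

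For Hspg2, the perlecan gene, no difference was detected. Its brighter probe set read 10.03, 10.13 and 10.01 in Atxn3-WT and 10.26, 10.09 and 10.06 in Atxn3-KO MEFs, and the groups overlapped. The log2 change was 0.076 with a 95% interval of -0.079 to 0.23 (adjusted p = 0.467 by limma). The other probe set read 9.93, 9.99 and 9.86 against 10.20, 10.08 and 9.96, a change of 0.15 (interval -0.012 to 0.32, adjusted p = 0.165). Both intervals include 0 and leave room for a small increase, while a decrease of the size seen for the laminin genes that fell lies outside them.

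Over all 19 probe sets, 13 (68.4%) passed an adjusted p of 0.05, where 26% of the 45037 probe sets did. Of these, 3 were higher and 10 lower in Atxn3-KO MEFs, and among all probe sets 12.5% were higher and 13.5% lower. The 6 that did not pass were the dimmer Lama4 probe set, both Hspg2 probe sets and the 3 that lay below the 25th percentile in both genotypes. Taken by the brightest probe set, 8 of the 9 genes (88.9%) passed, against 31.8% of all genes and 44.8% of the 11462 genes at or above the median level, where all 9 lie. The 2 genes that were higher compare with 17.1% of all genes higher, and the 6 that were lower with 14.7% lower. The median log2 change was -0.27 over the 9 genes and 0.0021 over all genes. Groups did not overlap for 14 of the 19 probe sets and for 8 of the 9 genes, against 41.1% of all probe sets and 49.2% of all genes. The 9 genes were chosen with earlier results of these data known, so these shares are a description and not a test. The 4 other measured laminin chain genes, described apart below, had 0 calls.

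**Figure D2:**
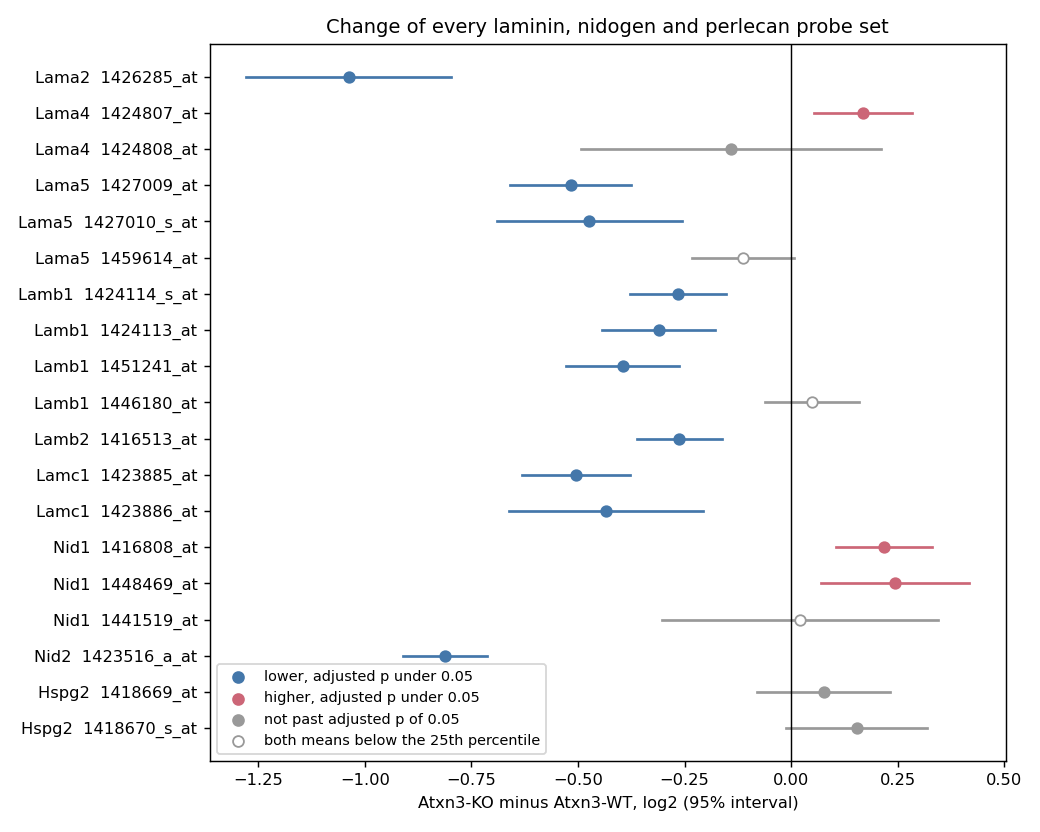
Log2 change, Atxn3-KO minus Atxn3-WT (horizontal axis), of each of the 19 probe sets, with its 95% interval as a line. Blue marks lower and red higher at an adjusted p under 0.05, grey marks the rest and open circles mark probe sets below the 25th percentile in both genotypes. Expressed probe sets of 1 gene lie on the same side of 0 for every gene with more than 1, except Lama4.

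Related genes were compared within each array, which sets the change of a gene against that of its relative. The difference between the log2 values of 2 probe sets has no meaning of its own, since probes differ in brightness, but its shift between genotypes does. Nid1 minus Nid2 was 0.47, 0.51 and 0.46 in Atxn3-WT and 1.52, 1.45 and 1.55 in Atxn3-KO MEFs. The balance of the nidogen RNAs thus moved toward Nid1 by 1.03 on the log2 scale, far beyond the spread in either genotype. Lama4 minus Lama5 was -0.08, -0.23 and -0.19 against 0.43, 0.61 and 0.52, a shift of 0.69, and Lama2 minus Lama4 was -1.08, -0.81 and -0.82 against -2.05, -2.02 and -2.27, a shift of -1.21. For these 3 pairs the groups did not overlap, and the exact permutation test, two-sided, gave p = 0.1, the smallest that 3 against 3 arrays allow, or 0.133 adjusted over the 4 pairs. Lamb1 minus Lamb2 was 2.20, 2.16 and 2.13 against 2.23, 2.10 and 2.15, so the beta chain genes fell by amounts that differed by less than the spread within a genotype (difference -0.0031, exact permutation p = 1, adjusted 1).

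**Figure D3:**
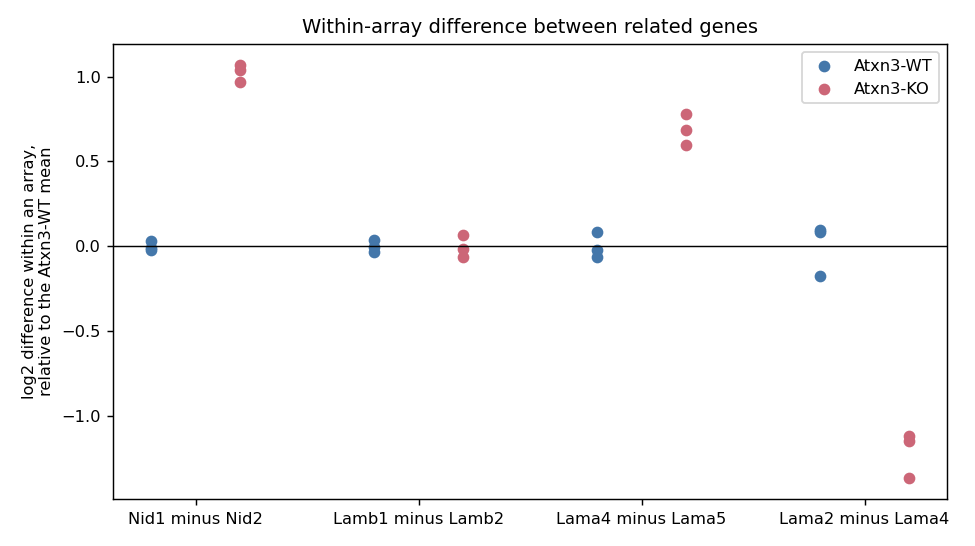
Difference between 2 related genes on the same array (vertical axis, log2, with the Atxn3-WT mean set to 0) for 4 pairs, with 1 point per array. The Atxn3-KO points are shifted up for Nid1 minus Nid2 (by 1.03) and Lama4 minus Lama5 (by 0.69), shifted down for Lama2 minus Lama4, and mixed with the Atxn3-WT points for Lamb1 minus Lamb2.

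The stability of these changes to single arrays differed between the genes. Nid2 changed by between -0.83 and -0.80 with any array left out, Lamc1 by -0.55 to -0.48, Lama5 by -0.58 to -0.49 and Lama2 by -1.10 to -0.93. Lamb1 (-0.29 to -0.24) and Lamb2 (-0.28 to -0.25) were as steady, and these 6 genes stayed under an adjusted p of 0.05 in all 6 cases. The increase of Nid1 did so in 5 cases and that of Lama4 in 1.

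**Figure D4:**
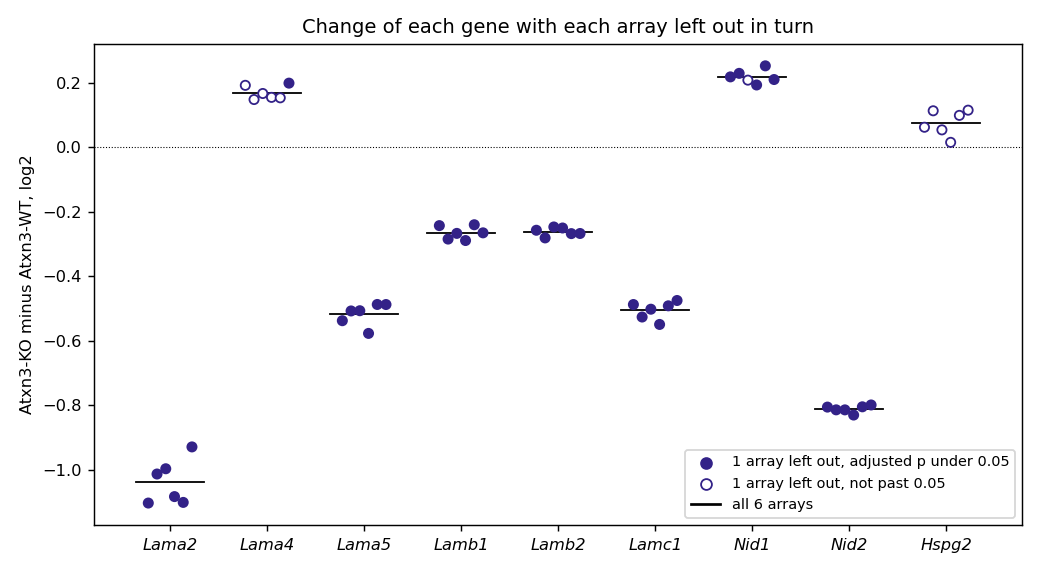
Log2 change of the brightest probe set of each gene (vertical axis, Atxn3-KO minus Atxn3-WT) with each of the 6 arrays left out in turn (points), beside the change over all 6 arrays (line). Filled points have an adjusted p under 0.05, and open points mark 5 of the 6 cases for Lama4, 1 for Nid1 and all 6 for Hspg2.

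The profile over the 6 arrays, centred on its mean, was compared between Lamc1 and every other gene by Euclidean distance. The 5 nearest genes were Spred2, an inhibitor of Ras to MAP kinase signaling (distance 0.060), Ppfia3, a liprin scaffold protein (0.065), Cracdl (0.069), Klf2, a zinc finger transcription factor (0.075), and Nes, the intermediate filament protein nestin (0.082). Of the other 8 laminin, nidogen and perlecan genes, Lama5 was the nearest to Lamc1, at distance 0.11 and place 22 of 18193 genes. Lamb1 was at place 897 (distance 0.30) and Lamb2 at place 1124 (0.33), followed by Nid2 at place 1644 (0.38). The profiles of Lama2 (place 11174), Hspg2 (11505), Lama4 (14129) and Nid1 (15139) were far from that of Lamc1. With 6 arrays this likeness mostly reflects genes with a similar change between the genotypes. The distance counts the size of a change as well as its direction. Lama2 fell like Lamc1, but by more (-1.04 against -0.51).

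The other laminin chain genes gave no detectable change. Of the 5 listed, 4 were measured, and 0 were higher and 0 lower by limma at an adjusted p under 0.05, with 0 also at an unadjusted p under 0.05. Lama3, an alpha chain of skin and other epithelia, had a log2 change of -0.022 (adjusted p = 0.863), and Lamc3, a gamma chain, 0.12 (adjusted p = 0.249). The most negative of the 4 values was -0.25, and the highest mean level was that of Lamc3, which was below the median of every array.

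Type IV collagen is the other network of the basement membrane. Of 8 basement membrane collagen genes, 4 were lower and 0 higher by limma, with 0 higher at an unadjusted p under 0.05 as well. Of all genes, 14.7% were lower and 17.1% higher. All 4 that were lower encode type IV chains. The type IV chain genes Col4a3 and Col4a4 lay below the 25th percentile in both genotypes. Col15a1 and Col18a1, also without a call, encode collagens of other types. Col4a1 read 12.63, 12.60 and 12.59 against 11.22, 11.20 and 11.17, and Col4a2 read 11.23, 11.06 and 11.15 against 9.72, 9.83 and 9.67, with a log2 change of -1.41 for each (adjusted p = 1.7e-06 and 9.75e-06). These values are larger in size than that of any laminin gene, a difference that was not tested. A further Col4a1 probe set gave -1.19 (adjusted p = 5.69e-06), nearer to the change of Lama2. Col4a6 changed by -0.54 (adjusted p = 0.00159) and Col4a5 by -0.34 (adjusted p = 0.0072).

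Of 16 genes for other basement membrane proteins and for proteins that link these networks, 8 were higher and 1 was lower, with a median change of 0.24. Of all genes, 17.1% were higher and 14.7% lower. Smoc2, a matricellular calcium-binding protein, had the largest value, 3.39, from an Atxn3-WT level below the 25th percentile, so its size is not exact. Fbln2, a fibulin that binds laminin and nidogen, rose from 12.14, 12.13 and 12.18 to 13.02, 13.04 and 12.98, a change of 0.86 (adjusted p = 1.57e-05). Tinagl1, a laminin-binding matrix protein, changed by 0.67 (adjusted p = 7.89e-05) and Npnt, the integrin ligand nephronectin, by 0.63 (adjusted p = 7.82e-05). Further Npnt probe sets gave 0.85 (adjusted p = 6.28e-05), 0.56 (adjusted p = 0.00706) and 0.34 (adjusted p = 0.0053), and another gave 0.20 without a call (adjusted p = 0.166).

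Of 11 genes for laminin receptors, 2 were higher and 2 lower. This share of 36.4% is near the 31.8% of all genes and under the 44.8% of genes at or above the median level. Itga6 and Itga7, alpha subunits of laminin-binding integrins, changed by -0.33 (adjusted p = 0.00567) and -0.30 (adjusted p = 0.00431), and a further Itga6 probe set by -0.19 (adjusted p = 0.061). Itgb4, the beta subunit that pairs with Itga6 in epithelia, changed by 0.46 (adjusted p = 0.0094). Its mean levels were low, 5.43 in Atxn3-WT and 5.90 in Atxn3-KO MEFs, both below the median of every array. Sdc4, a cell surface heparan sulfate proteoglycan, changed by 0.18 (adjusted p = 0.0187), a call lost without 4 of the 6 arrays. Of 8 measured genes for the sugars by which dystroglycan binds laminin, 3 were higher and 0 lower by limma, with 2 lower at an unadjusted p under 0.05. The share called, 37.5%, is again near the 31.8% of all genes. Those that rose were Pomgnt1 (0.62, adjusted p = 0.000169), B3galnt2 (0.33, adjusted p = 0.00196) and Rxylt1 (0.25, adjusted p = 0.00766). All 3 encode enzymes of the sugar chains of dystroglycan.

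Heparan sulfate is the sugar chain that perlecan carries. Of 18 measured genes for its synthesis and modification, 5 were higher and 3 lower, or 44.4% called, close to the 44.8% of genes at or above the median level. The extracellular sulfatases Sulf1 and Sulf2, which remove sulfate from the finished chains, changed by 2.01 (adjusted p = 9.34e-05) and 0.60 (adjusted p = 7.83e-05). Ext1, a polymerase of the chain, changed by 0.53 (adjusted p = 0.00014) and Hs6st2, a sulfotransferase, by -0.50 (adjusted p = 0.000151). Sulf1 rose from 6.05, 6.63 and 6.55 to 8.32, 8.45 and 8.50. The probe sets of a gene disagreed in part. A further Sulf2 probe set gave 0.68 (adjusted p = 0.000104) and another -0.15 (adjusted p = 0.0891). Of the other Hs6st2 probe sets, 2 gave -0.65 (adjusted p = 8.32e-05) and -0.79 (adjusted p = 6e-04) and 1 gave no call (adjusted p = 1). The other Ext1 probe set gave 0.10 (adjusted p = 0.582).

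Of 14 measured genes for proteases and inhibitors that act on the basement membrane, 3 were higher and 4 lower, or 50% called, against 31.8% of all genes and 44.8% of those at or above the median level. Mmp2, a gelatinase, changed by 1.20 (adjusted p = 2.15e-05). The metalloproteases Adamts1 and Adamts4 changed by -0.74 (adjusted p = 0.000141) and -0.47 (adjusted p = 0.000257), and Hpse, the heparanase that cuts heparan sulfate, by -0.44 (adjusted p = 0.00193). Of 11 genes for the vesicle transport of large matrix proteins out of the cell, 1 was higher and 2 lower, or 27.3% called, below the 31.8% of all genes. Mia3, a cargo receptor for collagens, changed by -0.33 (adjusted p = 0.00141). Further Mia3 probe sets gave -0.41 (adjusted p = 0.000994) and -0.24 (adjusted p = 0.00556), and another gave 0.038 without a call (adjusted p = 0.725). Klhl12, an adaptor of the ubiquitin ligase that enlarges transport vesicles, changed by -0.21 (adjusted p = 0.00715). Sec13, a vesicle coat protein, changed by 0.18 (adjusted p = 0.0168), a call lost without the first Atxn3-WT or the second Atxn3-KO array.

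**Figure D5:**
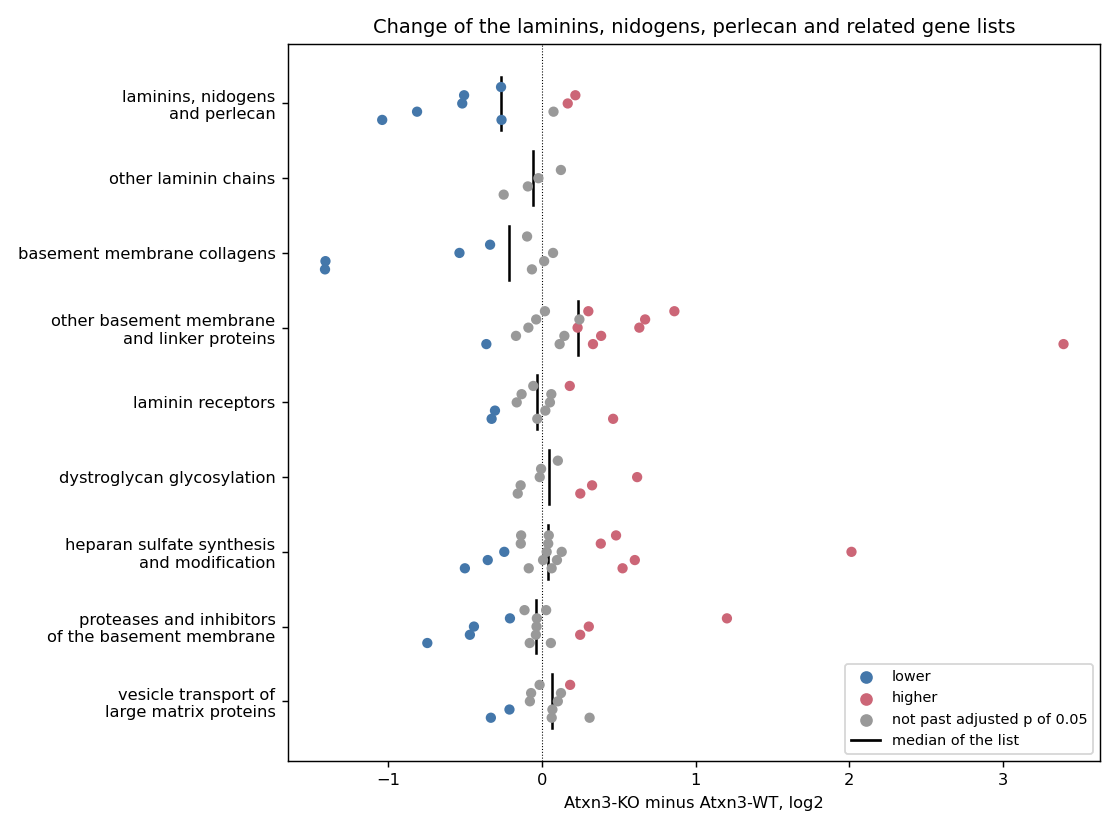
Log2 change (horizontal axis, Atxn3-KO minus Atxn3-WT) of the brightest probe set of every measured gene, for the laminins, nidogens and perlecan (top row) and 8 lists of related genes. Blue is lower and red higher at an adjusted p under 0.05, grey is neither, and the vertical bar is the median of the list, -0.27 for the top row and 0.24 for the other basement membrane and linker proteins.

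Some markers of other cell types differed between the genotypes. For comparison, 31.8% of all genes passed an adjusted p of 0.05 by limma, with 17.1% higher and 14.7% lower. Of genes at or above the median level, 44.8% passed. The summed level of 8 smooth muscle and pericyte markers was 14.22 to 14.24 (log2) in Atxn3-WT and 14.66 to 14.69 in Atxn3-KO MEFs, with 4 of 8 genes higher and 0 lower. Most of this sum is Acta2, which changed by 0.69, and Tagln, which changed by 0.26. The summed level of 5 measured adipocyte markers was 12.11 to 12.19 against 10.15 to 10.24, with 2 higher and 2 lower. Nearly all of the Atxn3-WT sum is Lpl, lipoprotein lipase, which had a mean level of 12.06 in Atxn3-WT and 9.47 in Atxn3-KO MEFs, while the adipocyte genes Pparg (1.00) and Fabp4 (0.61) were higher. The sums of epithelial markers (10.15 to 10.35 against 10.46 to 10.57, 2 of 8 higher) and parietal endoderm markers (9.66 to 9.71 against 9.88 to 9.95, 1 of 6 higher and 1 lower) moved less. Single genes among them changed more than any smooth muscle marker. The epithelial gene Krt18 changed by 1.27, from an Atxn3-WT level below the 25th percentile, and the parietal endoderm gene Thbd by 1.23. The summed fibroblast level was 16.59 to 16.61 against 16.44 to 16.48, with 3 of 12 genes higher and 5 lower. For the 8 endothelial (8.21 to 8.25 against 8.20 to 8.28), 7 skeletal muscle (8.08 to 8.13 against 8.16 to 8.21), 4 measured Schwann cell (8.64 to 8.73 against 8.56 to 8.62) and 8 macrophage markers (9.0 to 9.12 against 9.10 to 9.13) 0 genes passed an adjusted p of 0.05 by limma, while 0, 0, 1 and 2 of them passed it unadjusted. The endothelial genes Tek, Tie1 and Emcn and the muscle genes Myf5 and Myh3 lay below the 25th percentile on every array. The part of the cell types whose markers moved in the changes of the laminin and nidogen genes was not tested.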

How the data were processed

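RNA of 3 Atxn3-WT and 3 Atxn3-KO MEF samples was hybridized to Affymetrix GeneChip mouse genome arrays after labelling from 250 ng of total RNA. The authors deposited log2 values normalized by RMA, which corrects background, equalizes the distributions of the arrays and summarizes each probe set. This step would also take out any change that all genes share. The methods name a weighted linear model without its weights, and no tool versions are given in the sources used here.

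Of 45101 deposited probe sets, 64 controls were left out, and 45037 were fitted with limma 3.58.1 in R 4.3.3 (lmFit and eBayes, equal weights), with p-values adjusted by Benjamini-Hochberg over all of them. The platform annotation names 1 gene for 34945 probe sets, several for 932 and none for 9160. Of those naming 1 gene, 34741 were found in RefSeq's GRCm38.p6 gene table, where 0 had another symbol. A gene was represented by its probe set with the highest mean level over the 6 arrays. The fit was tested on simulated data. The number of arrays limits the precision.

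The members and lists were chosen with earlier results of these data known. Genes named in the text were Atxn3, all members, up to 4 genes per list with the largest change among those with an adjusted p under 0.05 (or, with none, up to 2 of the highest level) and the 5 genes nearest to Lamc1. Thy1, Lum, Lpl, Pparg, Fabp4, Acta2, Tagln, Krt18, Thbd and the cell type markers below the 25th percentile were named after their values were seen. So were the basement membrane collagen genes without a call, and the promoters to show were picked in the same way. Samples were grouped by their labels. Same-numbered samples of the genotypes did not deviate together, with correlations of 0.021, -0.023 and -0.036 for replicates 1, 2 and 3. The alternatives tried were leaving out each array, array weights, the replicate number as a block, renewed normalization, a filter on low levels, other variance models, a stricter threshold and another probe set rule. Some genes of the lists are not analysed here. Motifs were searched in RefSeq sequence.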

Additional observations from a re-analysis of the deposited data

How the results depend on the processing

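Across 14 alternatives for each of the 9 genes, 118 of 126 results kept their direction and their side of the adjusted p of 0.05, and the other 8 kept their direction but no longer passed it. These were 7 for Lama4 and 1 for Nid1. Array weights, renewed quantile normalization, median centring, a filter on low levels, an intensity trend and a robust fit changed no call of the 9 genes.

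With the replicate block Lama4 had a change of 0.17 (adjusted p = 0.0778), so that 1 gene and 1 probe set were higher, and 0 probe sets passed the thresholds of the study. The block changed no other call of the 9 genes. The replicate numbers are not known to pair the samples. With the median over all probe sets of a gene Lama4 changed by 0.014 (adjusted p = 0.929) and 1 gene was higher. At an adjusted p under 0.01, 0 genes and 0 probe sets were higher.

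With 1 array left out, the change of Lama4 ran from 0.15 to 0.20 and that of Nid1 from 0.19 to 0.25. From 0 to 2 genes and 0 to 3 probe sets were then higher, both 0 without the third Atxn3-WT array, and 0 probe sets passed the thresholds of the study in all 6 cases. The difference in change between Lamb1 and Lamb2 ran from -0.039 to 0.028 and turned positive without the first Atxn3-WT array (0.014), the second Atxn3-KO array (0.028) or the third Atxn3-KO array (0.0020).

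In the related lists, 189 counts under the alternatives stayed within 1.5 times the count reported and 19 did not. The cause was not tested. Changes of probe sets near the 25th percentile are limited by the signal over background, and 3 arrays per genotype limit the small changes of Lama4, Nid1 and Hspg2.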
